A study of Homo sapiens with 39 samples.

Results

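NEO2734 was compared with its vehicle, DMSO, in TMD8, a human diffuse large B cell lymphoma line of the activated B cell type. The 6 libraries of this comparison, 3 with NEO2734 and 3 with DMSO, were chosen by their sample labels out of 39 RNA-seq libraries. The other libraries described here are 3 of TMD8 with OTX015 and 18 with DMSO or NEO2734 from DOHH2, OCILy10 and Toledo. The rest are OCILy10 with CB103 and the other lines with OTX015. All 39 entered the fit, which estimated the spread from all of them. Of these other lymphoma lines DOHH2 and Toledo belong to the germinal centre type and OCILy10 to the activated type. NEO2734 is a small molecule that blocks BET and CBP/p300 bromodomains alike, whereas OTX015 (birabresib) blocks those of BET proteins. The time label of each sample gives 6 h, and the labels name no engineered allele. The protocol text that all 39 samples share names other compounds and a longer treatment as well, so groups were taken from each sample's own labels. The labels give no doses, and whether replicates were grown as separate cultures is not stated. The p-values thus measure only the spread between the libraries of the fit, which may be technical. TMD8 is a single line, so the values speak for that line and not for a lymphoma type.

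BET proteins bind acetylated histones at promoters and enhancers and bring in P-TEFb, the kinase that releases paused RNA polymerase II, while CBP and p300 are acetyltransferases that act at enhancers. TMD8 is known to carry activating mutations in CD79B, a chain of the B cell receptor, and in MYD88, the adaptor of Toll-like receptors. These drive NF-kB, and in lymphomas of this type they are also known to drive the cytokines IL6 and IL10, STAT3 and type I interferon, whose target genes the cells then express without added interferon. The master regulators IRF4 and PAX5 and the growth regulator MYC sit downstream of or beside these pathways.

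Replicate 1 of each TMD8 group was sequenced more deeply (7502499 to 9299258 counts) than replicates 2 and 3 (1265383 to 2175778 counts), and 13395 to 14276 genes had at least 1 count. Libraries with the same number deviated together, so the replicate number was kept as a term in the test, and differences were read within pairs 1, 2 and 3. DMSO replicate 2 was no closer to its own number, with r = 0.457 to NEO2734 replicate 2 and 0.470 to replicate 3. With OTX015 these values were 0.416 and 0.561. The pairing of replicates 2 and 3 thus rests on their labels more than on the data. Levels are CPM, the counts of a gene scaled to a common library size, after TMM scaling. A gene was called when its adjusted p was under 0.05, and the value after ± is the standard error of the log2 change. The labelled cell type was checked on its markers. The 10 B cell markers summed to 4577 to 7174 CPM with DMSO and to 3388 to 4267 CPM with NEO2734, and 2 of them, PAX5 and CD22, fell. Of 12 T cell markers 4 could be tested and summed to 4.43 to 11.1 CPM over the DMSO and NEO2734 libraries. CD2 had 0 counts and TRAC 3 counts over the DMSO libraries. None of 12 monocyte markers reached the level needed for testing.

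NEO2734 changed 751 of the 12814 genes tested (5.86%), with 252 called higher (1.97%) and 499 called lower (3.89%). Of the called genes 135 rose and 393 fell at least 2-fold, and 29 rose and 53 fell at least 8-fold. The median log2 fold change over all genes tested was -0.03. The 3 NEO2734 libraries lay wholly above or below the 3 DMSO libraries for 672 of the 751 called genes. Over all genes tested the share was 17.9% (7.34% apart with NEO2734 higher and 10.6% with it lower). Of the called genes 745 changed in the same direction in all 3 pairs. The calls were made on these same libraries, so neither count is independent support for them. Scaling by library totals gave 868 calls with 48.8% of them higher, in place of 33.6%. The count fell to 376 without DMSO replicate 1, 409 without DMSO replicate 2 and 314 without DMSO replicate 3. It fell to 262, 308 and 342 without NEO2734 replicate 1, 2 and 3, and 197 of the 751 genes (49 higher, 148 lower) were called without each of the 6 libraries in turn. Across 9795 genes at 5 CPM or more, the log2 changes of pairs 1 and 3 were closest (Pearson's r = 0.696, 71.1% of the same sign). Pair 2 was further from both (r = 0.433 with pair 1 and 0.497 with pair 3). Genes in 1 library share its depth and scaling, so these are descriptions.

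**Figure D1:**
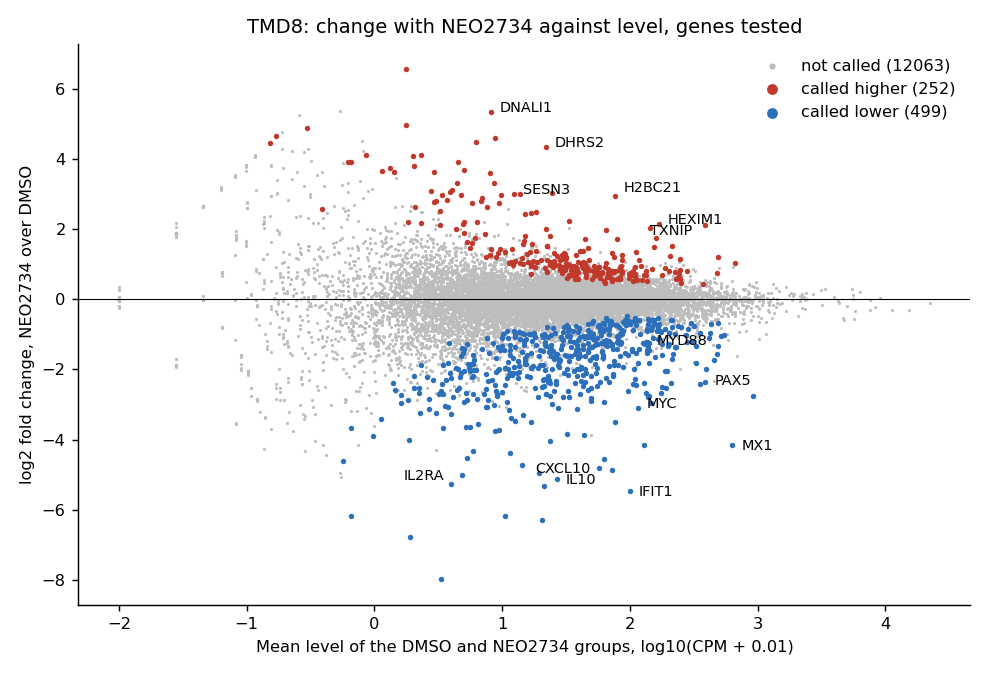
Log2 fold change with NEO2734 over DMSO in TMD8 (vertical) against the mean level of both groups, log10(CPM + 0.01) (horizontal), for each of the 12814 genes tested. Red points are the 252 genes called higher and blue points the 499 called lower. More genes were called below 0 than above it.

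HEXIM1 (ENSG00000186834.3, chromosome 17, 45148502 to 45152101 of GRCh38), whose product holds P-TEFb inactive and which is used as a marker of BET inhibition, stood at 46.9, 57.1 and 70.6 CPM with DMSO and at 151, 314 and 372 CPM with NEO2734. The groups did not overlap, and the rise was 4.47-fold (log2 2.16 ± 0.33, adjusted p = 0.000259). Of 14 markers of BET inhibition tested, 7 rose and 3 fell, with a median log2 change of 1.30. Between 4 (without NEO2734 replicate 1) and 6 rose and 2 fell when 1 of the 6 libraries was left out. SAT1, which acetylates polyamines for their breakdown, rose by 1.75 ± 0.34 on the log2 scale (adjusted p = 0.00259). SERPINI1, a serpin gene, had 1 count over the DMSO libraries and 19 over the NEO2734 libraries, a ratio of 19.3 with a 95% exact counting interval of 3.06 to 801. Its call (adjusted p = 0.0436) was lost without any of the 6 libraries, and its log2 change in these fits ranged from 3.84 to 5.84.

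Of 32 genes of the BET proteins, CBP/p300 and P-TEFb, HEXIM1 was the only one called, against 5.86% of all genes tested, and the list's median was 0.03. BRD2 stood at 266, 293 and 323 CPM with DMSO and at 404, 419 and 427 CPM with NEO2734. These groups did not overlap, but its change of 0.51 ± 0.16 did not pass (adjusted p = 0.0679). DESeq2 (adjusted p = 0.0107) and 9 other alternatives called it. BRD3 (0.02 ± 0.31), CREBBP (-0.13 ± 0.19), which encodes CBP, and EP300 (0.03 ± 0.20), which encodes p300, did not pass and their groups overlapped.

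MYC (ENSG00000136997.13, chromosome 8, 127735434 to 127741434), the growth-promoting transcription factor, stood at 226, 64.3 and 340 CPM with DMSO and at 24.0, 19.7 and 19.1 CPM with NEO2734. The 3 NEO2734 libraries were close to each other and below the 3 DMSO libraries, of which replicate 2 was the lowest. The fall was 8.64-fold (-3.11 ± 0.36, adjusted p = 2.03e-05), and its log2 value ranged from -3.62 to -2.55 over 19 alternatives, with the call kept in each. Of 10 genes of the MYC network, MYC fell and MXD1, whose product competes with MYC for the partner MAX, rose by 1.81 ± 0.36 (adjusted p = 0.00336). MXD1 stood at 8.20, 6.65 and 5.29 CPM with DMSO and at 25.8, 23.2 and 22.2 CPM with NEO2734, without overlap.

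Of 57 known MYC targets and ribosome biogenesis genes tested, 6 fell and 0 rose, and 54 lay below 0 with a median of -0.52. Over all genes tested 3.89% fell and 1.97% rose. The falls were 4 without DMSO replicate 1 or 2, 2 without NEO2734 replicate 1 or 2 and 1 without replicate 3 of either group. Among all genes, 228 of 13319 fell without DMSO replicate 3 and 224 of 13323 without NEO2734 replicate 3. POLR1B, a subunit of RNA polymerase I, fell by 0.86 ± 0.15 (adjusted p = 0.000793), and its 61.2 to 86.6 CPM with NEO2734 lay below its 117 to 150 CPM with DMSO. APEX1, an endonuclease of base excision repair, fell by 0.59 ± 0.13 (adjusted p = 0.00763), a call lost without DMSO replicate 3 or NEO2734 replicate 2 or 3 (log2 -0.68 to -0.48 over the 6 fits). None of the 78 ribosomal protein genes was called (median -0.02).

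Many of the largest falls were those of interferon-stimulated genes, the antiviral genes that type I interferon induces through STAT and IRF factors. Of 46 tested, 38 fell and 0 rose, all 46 lay below 0, and the median log2 change was -2.77, a 6.84-fold fall. In 38 of the 46 the 2 groups did not overlap. Their summed level was 4415 to 8649 CPM with DMSO and 941 to 1692 CPM with NEO2734. Between 32 and 37 fell when any of the 6 libraries was left out, and 28 did so without the replicate term. The genes of this list were known from earlier results of these libraries, so its direction is no independent evidence.

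IFIT1 (ENSG00000185745.9, chromosome 10, 89392546 to 89406486), which binds viral RNA that lacks the host's cap mark, stood at 207, 94.2 and 281 CPM with DMSO and at 4.27, 0.875 and 12.2 CPM with NEO2734. The highest NEO2734 library held far less than the lowest DMSO library, and the fall was 44.3-fold (-5.47 ± 0.57, adjusted p = 4.16e-06). MX1 (ENSG00000157601.12, chromosome 21, 41420304 to 41459214), a dynamin-like GTPase that blocks viruses, stood at 948, 646 and 1964 CPM with DMSO and at 59.8, 22.7 and 163 CPM with NEO2734 (-4.15 ± 0.37, adjusted p = 8.81e-07). In both genes replicate 2 was lowest and replicate 3 highest in either group, and the within-pair log2 changes of MX1 were -3.97, -4.80 and -3.59.

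IFI44 had 88 counts over the DMSO libraries and 0 over the NEO2734 libraries, which makes it at least 28.9-fold lower with 3 counts over the group as the limit. Without NEO2734 replicate 1, the deep library, its fall did not pass (adjusted p = 0.0698). Further genes among the 12 largest falls were OASL (-6.20 ± 1.03), IFI44L (-5.33 ± 0.87), USP18 (-4.97 ± 0.77), which removes the ubiquitin-like ISG15 from proteins, IFIT3 (-4.88 ± 0.44) and XAF1 (-4.81 ± 0.57). IFIH1, which encodes the RNA sensor MDA5, fell by 3.51 ± 0.42 (adjusted p = 2.32e-05), and RIGI, the sensor RIG-I, by 2.89 ± 0.38 (adjusted p = 5.24e-05).

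Promoters of these genes are known to carry the interferon-stimulated response element, which complexes with IRF factors bind. Its core, GAAA, any 2 bases and GAAA, was searched on both strands in RefSeq promoters (250 bases before to 50 after a start, GRCh38.p14). It was held by 34 of 53 promoters of the interferon-stimulated genes (64.2%), against 3.17% of the promoters of all genes tested and 3.57% of all RefSeq promoters. Promoters of called falls outside that list held it in 6.17% and those of called rises in 2.81%. A match describes letters and is not a measured binding site. The stretches below belong to genes with some of the largest falls, plus MYD88, and were shown only where a match was found. OASL, USP18 and XAF1, also among the largest falls, gave no such stretch. Capitals mark the core or its reverse complement. The stretches of IFIT1 and IFIT3 hold 2 matches each.
IFIT1, chr10:89392477-89392559, plus strand: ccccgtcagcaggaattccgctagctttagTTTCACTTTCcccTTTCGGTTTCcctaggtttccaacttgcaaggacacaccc
IFIT3, chr10:89332405-89332517, plus strand: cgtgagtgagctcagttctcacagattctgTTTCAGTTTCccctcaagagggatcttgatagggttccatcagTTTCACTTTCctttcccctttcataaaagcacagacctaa
MX1, chr21:41420539-41420607, plus strand: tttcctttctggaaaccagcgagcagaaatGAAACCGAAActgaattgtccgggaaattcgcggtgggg
CXCL10, chr4:76023679-76023747, minus strand: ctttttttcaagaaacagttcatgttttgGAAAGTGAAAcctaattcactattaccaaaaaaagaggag
MYD88, chr3:38138570-38138639, plus strand: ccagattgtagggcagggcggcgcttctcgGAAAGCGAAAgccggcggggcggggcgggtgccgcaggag

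Among 20 genes of interferon receptors, STATs and IRFs, 5 fell and 0 rose (median -0.67), and 2 to 4 fell when 1 of the 6 libraries was left out (2 without any NEO2734 library). IRF2, which binds the same element, fell by 1.62 ± 0.16 (adjusted p = 3.56e-06), from 85.8, 69.8 and 91.3 CPM to 26.7, 23.2 and 30.6 CPM, without overlap. The receptor gene IFNAR1 (-0.06 ± 0.19) and STAT2 (-0.42 ± 0.17, adjusted p = 0.172) did not pass.

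Of 20 genes of MHC class I presentation, which interferon also induces, 5 fell and 0 rose (median -0.56), and 52.4% of their promoters held the same core. Only 1 fell when a library other than DMSO replicate 1 was left out, and 2 without that library. TAP1, a subunit of the peptide transporter, fell by 2.20 ± 0.38 (adjusted p = 0.00105), from 117, 37.1 and 94.7 CPM to 20.8, 12.7 and 17.6 CPM, a call lost without the replicate term or with the shallow libraries alone. The presenting chain HLA-B (-0.38 ± 0.26) and its partner B2M (0.03 ± 0.20) did not pass, and HLA genes share sequence, so reads between them may be split.

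**Figure D2:**
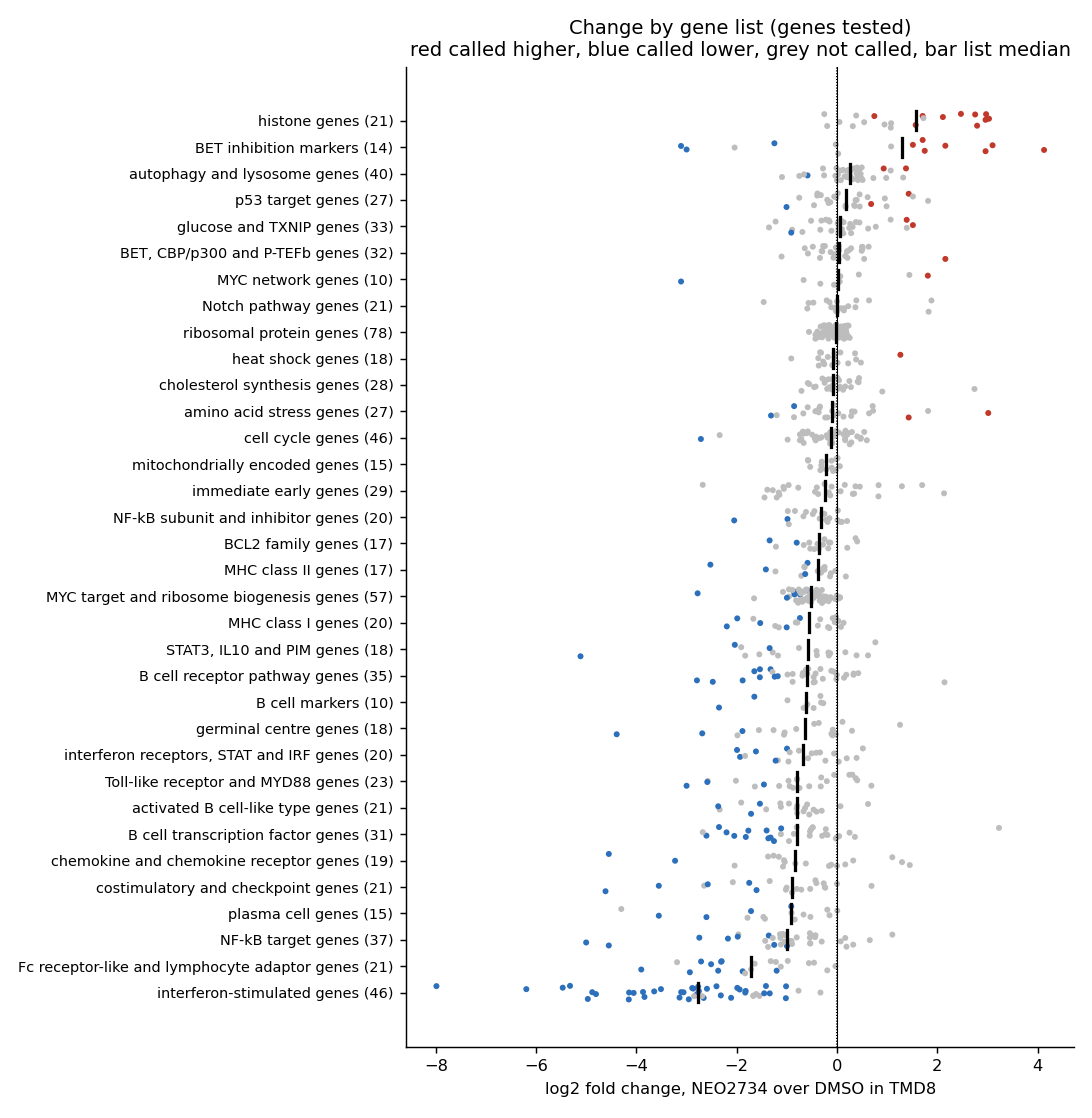
Log2 fold change with NEO2734 over DMSO in TMD8 for each tested gene of 34 lists, 1 list a line with the number tested in brackets. Red points were called higher, blue points called lower and grey points not called, the black bar is the list's median, and the dotted line near 0 is the median of all genes tested. Interferon-stimulated genes lie furthest to the left (median -2.77) and histone genes furthest to the right (median 1.57).

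MYD88 (ENSG00000172936.11, chromosome 3, 38138478 to 38143022), the mutated adaptor of this line, stood at 246, 132 and 222 CPM with DMSO and at 77.9, 51.2 and 88.7 CPM with NEO2734. The groups did not overlap, and the fall was 2.75-fold (-1.46 ± 0.18, adjusted p = 2.5e-05). Of 23 genes of the Toll-like receptor pathway, 3 fell and 0 rose (median -0.79), and 1 fell without DMSO replicate 3 or NEO2734 replicate 1. TLR7, a receptor for single-stranded RNA, was another, from 75.1, 69.8 and 96.6 CPM to 14.3, 13.1 and 13 CPM (-2.59 ± 0.55, adjusted p = 0.00604). Its call was lost without DMSO replicate 3 or NEO2734 replicate 1 (adjusted p = 0.0664 and 0.0537).

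Of 35 genes of the B cell receptor pathway, 9 fell and 0 rose (median -0.59). The falls were 6 without DMSO replicate 2 and 5 without any other of the 6 libraries. The Src-family kinase BLK fell by 2.48 ± 0.27 (adjusted p = 6.99e-06), the adaptor LAT2 by 1.88 ± 0.24 (adjusted p = 4.52e-05), and the inhibitory receptors CD22 by 1.65 ± 0.22 and CD72 by 2.79 ± 0.46. These 4 were called without each library in turn. SYK, the kinase that binds the receptor's signalling chains, went from 443, 417 and 405 CPM to 248, 139 and 185 CPM, without overlap (-1.18 ± 0.23, adjusted p = 0.00267), a call lost without the replicate term. The receptor chains themselves, CD79A (-0.33 ± 0.43) and CD79B (-0.59 ± 0.56), did not pass and overlapped between the groups. BTK, the kinase next to SYK, went from 216, 223 and 269 CPM to 141, 99.3 and 146 CPM, which did not overlap and did not pass (-0.88 ± 0.31, adjusted p = 0.0982).

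Of 37 NF-kB targets tested 8 fell and 0 rose (median -1.0), and of 20 subunit and inhibitor genes 2 fell and 0 rose (median -0.32). Over all genes tested 3.89% fell, so 2 falls say little about the subunit and inhibitor genes. When 1 library was left out, 3 to 6 targets fell (3 without DMSO replicate 3 or NEO2734 replicate 1 or 2), and the subunit and inhibitor genes had 1 fall without DMSO replicate 1 or 2 and 0 otherwise. CXCL10 (ENSG00000169245.5, chromosome 4, 76021117 to 76023497), a chemokine that interferon and NF-kB both induce, stood at 148, 93.1 and 121 CPM with DMSO and at 4.91, 6.56 and 3.82 CPM with NEO2734 (-4.55 ± 0.60, adjusted p = 4.71e-05). IL2RA, the alpha chain of the IL2 receptor, had 101 counts over the DMSO libraries and 3 over the NEO2734 libraries, a ratio of 0.0301 (95% exact counting interval 0.00611 to 0.0906). Its call (adjusted p = 0.0106) was lost without DMSO replicate 3 or NEO2734 replicate 1 or 2 (0.0735 to 0.115). The adhesion gene ICAM1 fell by 2.17 ± 0.28 and BIRC3, an inhibitor of apoptosis, by 1.36 ± 0.18, and both were called without each library in turn, BIRC3 not without the replicate term. NFKBIA, the inhibitor that NF-kB itself induces, stood at 122, 209 and 496 CPM with DMSO and at 140, 316 and 328 CPM with NEO2734, and did not pass (0.07 ± 0.42).

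IL10 (ENSG00000136634.5, chromosome 1, 206767602 to 206772494), the autocrine cytokine of activated-type lymphoma, stood at 53.5, 9.97 and 93.2 CPM with DMSO and at 2.35, 0 and 2.29 CPM with NEO2734. The groups did not overlap although the DMSO libraries differed widely, and the fall was 34.7-fold (-5.12 ± 0.81, adjusted p = 0.00074), called in all 19 alternatives. Of 18 tested genes of the STAT3, IL10 and PIM group, 3 fell and 0 rose (median -0.58), and 1 fell when any library but DMSO replicate 2 was left out. The other falls were SOCS3, a feedback inhibitor that STAT3 induces (-2.04 ± 0.52, adjusted p = 0.0228), and the survival gene BCL2L1 (-1.34 ± 0.37, adjusted p = 0.0299). SOCS3 lost its call without DMSO replicate 1 or 3 or any NEO2734 library (adjusted p 0.0602 to 0.177 in these fits), and its groups overlapped at 113 to 684 CPM with DMSO and 18.3 to 130 CPM with NEO2734. BCL2L1 lost it without DMSO replicate 1 or 3 or any NEO2734 library (log2 -1.75 to -0.80 over the 6 fits). STAT3 (-0.40 ± 0.49) and PIM1 (-0.41 ± 0.34) did not pass.

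**Figure D3:**
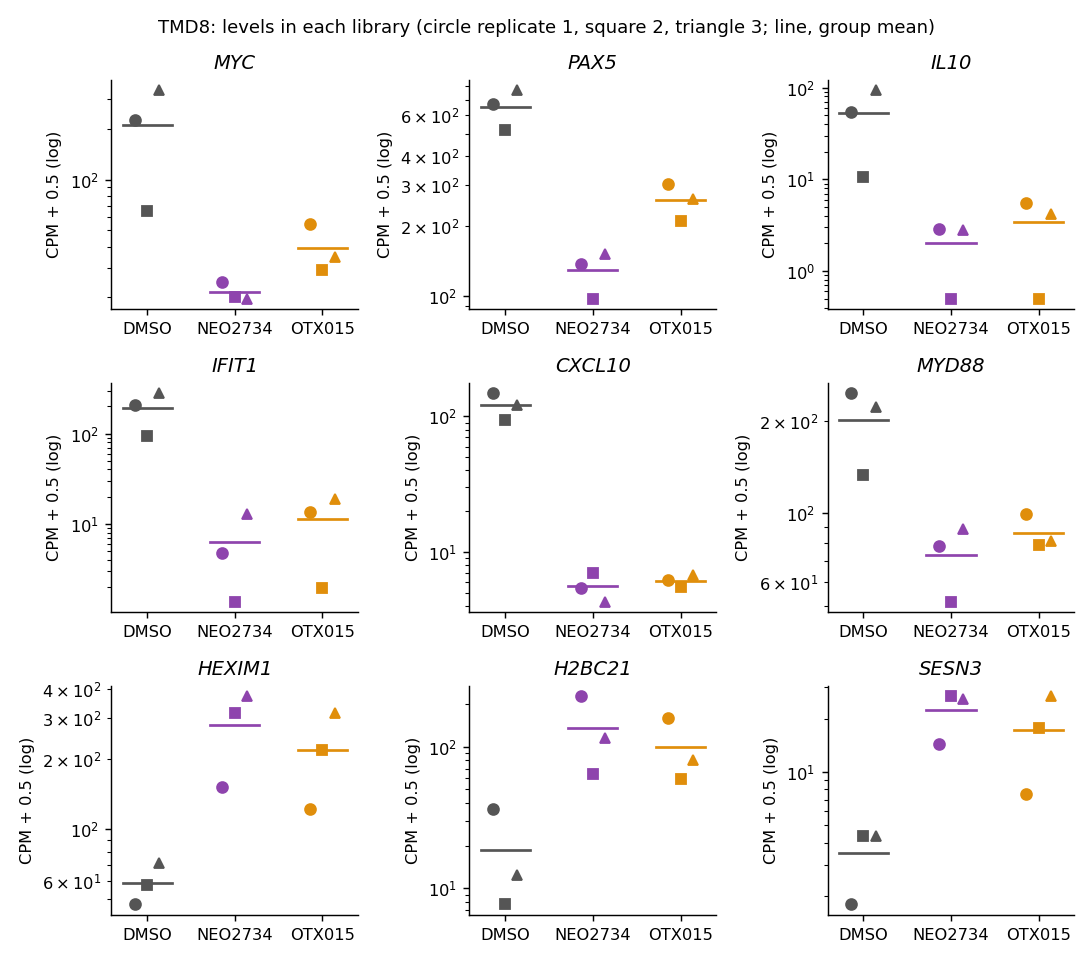
Levels of 9 genes in each TMD8 library, as CPM + 0.5 on a log axis, with DMSO, NEO2734 and OTX015 side by side. Circles are replicate 1, squares replicate 2, triangles replicate 3 and lines group means. In each panel the 3 NEO2734 libraries lie wholly below or above the 3 DMSO libraries, and for PAX5 they lie below the 3 OTX015 libraries too.

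PAX5 (ENSG00000196092.11, chromosome 9, 36833275 to 37034185), the transcription factor that sets B cell identity, stood at 669, 516 and 769 CPM with DMSO and at 136, 96.7 and 151 CPM with NEO2734. Both groups were tight and far apart, the within-pair changes were -2.29, -2.41 and -2.34, and the fall was 5.11-fold (-2.35 ± 0.22, adjusted p = 1.32e-06). Among 31 tested transcription factors of B cells there were 11 falls and 0 rises (median -0.80), and 26 lay below 0. When 1 library was left out, the falls numbered 4 (without NEO2734 replicate 2) to 9. POU2AF1, the B cell coactivator of octamer factors, went from 85.2, 170 and 250 CPM to 23.4, 21.9 and 29.1 CPM, without overlap (-2.60 ± 0.34, adjusted p = 4.62e-05). The corepressor gene CBFA2T3 fell by 2.05 ± 0.32 (adjusted p = 0.000379), and the ETS factor FLI1 by 1.77 ± 0.27 (adjusted p = 0.000297). Both were called in all 19 alternatives.

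IRF4, on which activated-type lines depend, stood at 1710, 712 and 1825 CPM with DMSO and at 913, 471 and 533 CPM with NEO2734. The lowest DMSO library lay inside the NEO2734 range, and the change did not pass (-1.12 ± 0.35, adjusted p = 0.0602). It passed in 6 of 19 alternatives, among them DESeq2 (adjusted p = 0.0190). BCL6, the germinal centre repressor, did not pass (-0.02 ± 0.60) at 14.4 to 32.9 CPM over both groups, nor did PRDM1, which drives plasma cell fate (-0.91 ± 0.44, adjusted p = 0.271).

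Of 21 Fc receptor-like and lymphocyte adaptor genes, 9 fell, 0 rose and all 21 lay below 0 (median -1.71), and 6 or 7 fell when 1 library was left out. The B cell receptor modulator FCRL2 fell by 2.93 ± 0.48 (adjusted p = 0.000593), and the adaptors SASH3 by 2.37 ± 0.31 (adjusted p = 4.62e-05) and SIT1 by 2.30 ± 0.37 (adjusted p = 0.000434). TNFRSF13C, the BAFF receptor, went from 45.5, 43.8 and 64.4 CPM to 12.3, 17.9 and 15.3 CPM (-1.75 ± 0.26, adjusted p = 0.000229). TNFRSF17, the plasma cell receptor BCMA, went from 19.2, 11.1 and 5.29 CPM to 3.31, 0 and 0 CPM (-3.55 ± 0.71, adjusted p = 0.00355), a call lost without the replicate term. IL16, a cytokine gene used to mark the activated type, fell by 2.37 ± 0.32 (adjusted p = 5.44e-05), and the germinal centre gene SERPINA9 by 4.39 ± 0.74 (adjusted p = 0.00326).

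Of 17 MHC class II genes 4 fell and 0 rose (median -0.39), and the falls numbered 1 (without NEO2734 replicate 1) to 3 when 1 library was left out. CIITA, the master regulator of the class, fell 5.76-fold (-2.53 ± 0.39, adjusted p = 0.000322), from 74.6, 77.6 and 101 CPM to 13.3, 14.0 and 16.8 CPM. Its call held in all 19 alternatives. The last members of the 12 largest falls were ASB2, which directs proteins to ubiquitin ligation (-4.74 ± 0.80), and CHST3, a sulfotransferase of chondroitin (-4.52 ± 0.87, adjusted p = 0.0211). CHST3 lost its call without any DMSO library or NEO2734 replicate 1 or 2 and with DESeq2 (adjusted p = 0.898).

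Of 46 cell cycle genes, MYB was the only one called (median -0.12). Over all genes tested 5.86% were called and 3.89% fell, so small counts in this and the next list say little. MYB, a proto-oncogenic transcription factor, went from 28.9, 49.3 and 35.6 CPM to 5.44, 5.69 and 6.12 CPM (-2.71 ± 0.50, adjusted p = 0.00163). Of 17 BCL2 family genes 2 fell, BCL2L1 and BCL2 (-0.80 ± 0.20, adjusted p = 0.0199), and the call of BCL2 was lost without any of the 6 libraries (log2 -0.88 to -0.74) and without the replicate term (adjusted p = 0.582). MCL1 (-0.16 ± 0.20) and CDKN1A, which encodes the cell cycle inhibitor p21 (0.17 ± 0.41), did not pass. None of the 29 immediate early genes was called (median -0.25), nor any of 28 cholesterol synthesis genes (median -0.09), 21 Notch pathway genes (median 0.00) or 15 mitochondrially encoded genes (median -0.21). These counts of 0 are edgeR's with all libraries. DESeq2 called 2 falls among the immediate early genes, 1 in the Notch pathway and 0 in the other lists, and limma-voom 5 falls and 2 rises among the immediate early genes and 1 Notch fall. Without DMSO replicate 2, edgeR called 1 fall among the immediate early genes.

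The rises held many histone genes. Of 21 tested, 11 rose and 0 fell, with a median log2 change of 1.57. Their summed level was 1046 to 1855 CPM with DMSO and 2382 to 3083 CPM with NEO2734. H2BC21 (ENSG00000184678.9, chromosome 1, 149884459 to 149886652), an H2B gene, stood at 35.6, 7.2 and 12 CPM with DMSO and at 227, 63.9 and 114 CPM with NEO2734. The groups did not overlap, replicate 1 was highest in both, and the rise was 7.79-fold (2.96 ± 0.54, adjusted p = 0.00165). H2BC18 rose by 3.03 ± 0.63 (adjusted p = 0.00467) and H2BC11 by 2.47 ± 0.44 (adjusted p = 0.00113). Only 5 or 6 rose when any of the 6 libraries was left out, and 1 did without the replicate term or with the shallow libraries alone, while the list's median stayed between 1.35 and 1.71. H2B genes are near-identical in sequence and most histone transcripts carry no poly(A) tail, so the share of reads each receives is uncertain.

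H2B promoters are known for the octamer, the site of OCT1. The letters ATTTGCAT, on either strand, were held by 10 of 27 promoters of the histone genes tested (37.0%), against 1.36% of promoters of all genes tested, 4.56% of those of called rises and 1.36% of those of called falls. Stretches of H2BC21, H2BC18 and H2BC4 are printed because these genes rose 8-fold or nearly so and held a match. The octamer is in capitals at 46, 49 and 123 bases before the start. H2BC4 rose 7.98-fold (adjusted p = 0.00908), a call lost without replicate 1 or 3 of either group (log2 2.73 to 3.11 in these fits).
H2BC21, chr1:149886691-149886758, minus strand: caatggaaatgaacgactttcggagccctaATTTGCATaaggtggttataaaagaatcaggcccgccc
H2BC18, chr1:149812382-149812449, minus strand: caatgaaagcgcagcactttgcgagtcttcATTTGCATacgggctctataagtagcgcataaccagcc
H2BC4, chr6:26124012-26124079, minus strand: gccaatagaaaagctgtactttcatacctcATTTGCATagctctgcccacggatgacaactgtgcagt

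SESN3 (ENSG00000149212.9, chromosome 11, 95165513 to 95232541), a sestrin that restrains the growth kinase mTORC1, stood at 1.29, 3.88 and 3.84 CPM with DMSO and at 14.0, 26.2 and 25.2 CPM with NEO2734. The rise was 8.09-fold without overlap (3.02 ± 0.28, adjusted p = 9.95e-07). Its relative SESN1 rose by 1.43 ± 0.28 (adjusted p = 0.00295). TXNIP, which limits glucose uptake, went from 106, 142 and 82.2 CPM to 437, 276 and 238 CPM (1.51 ± 0.30, adjusted p = 0.00345). Its call was lost without DMSO replicate 1 or NEO2734 replicate 1 (adjusted p = 0.0517 and 0.0507). Of 33 genes of glucose use and the arrestin-domain family 2 rose and 1 fell. Among 40 genes of autophagy and the lysosome there were 2 rises and 1 fall, with a median of 0.27. Over all genes tested 1.97% rose and 3.89% fell, so such small counts say little about either list. Without DMSO replicate 1 or NEO2734 replicate 1 no gene of the first list was called, and the falls of both lists were lost without any of the 6 libraries.

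Genes at low levels with DMSO made up the 12 largest rises other than histone genes and SESN3. DHRS2, a mitochondrial short-chain dehydrogenase, stood at 3.34, 1.11 and 1.44 CPM with DMSO and at 74.4, 30.2 and 21.4 CPM with NEO2734 (4.36 ± 0.65, adjusted p = 0.000211). DNALI1, an axonemal dynein chain, had 3 counts over the DMSO libraries and 133 over the NEO2734 libraries, a ratio of 45.0 (95% exact counting interval 15.1 to 221). CEMIP2, a cell surface hyaluronidase (3.65 ± 0.48), EFR3B, which anchors a lipid kinase at the plasma membrane (3.93 ± 0.73), and ADARB1, an RNA-editing deaminase (3.31 ± 0.62), were called without each library in turn. MYH15, a myosin heavy chain (4.48 ± 0.99), ZCCHC24 (3.10 ± 0.65), the meiotic gene MSH4 (3.69 ± 0.95) and TUFT1 (3.07 ± 0.71) were not. MYH15 lost its call without DMSO replicate 1, ZCCHC24 without NEO2734 replicate 1, MSH4 without any DMSO library or NEO2734 replicate 1 or 2, and TUFT1 without DMSO replicate 2 or 3 or any NEO2734 library. Over the 6 fits that each leave out 1 library, the log2 changes of these 4 genes ranged from 2.71 to 4.95.

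**Figure D4:**
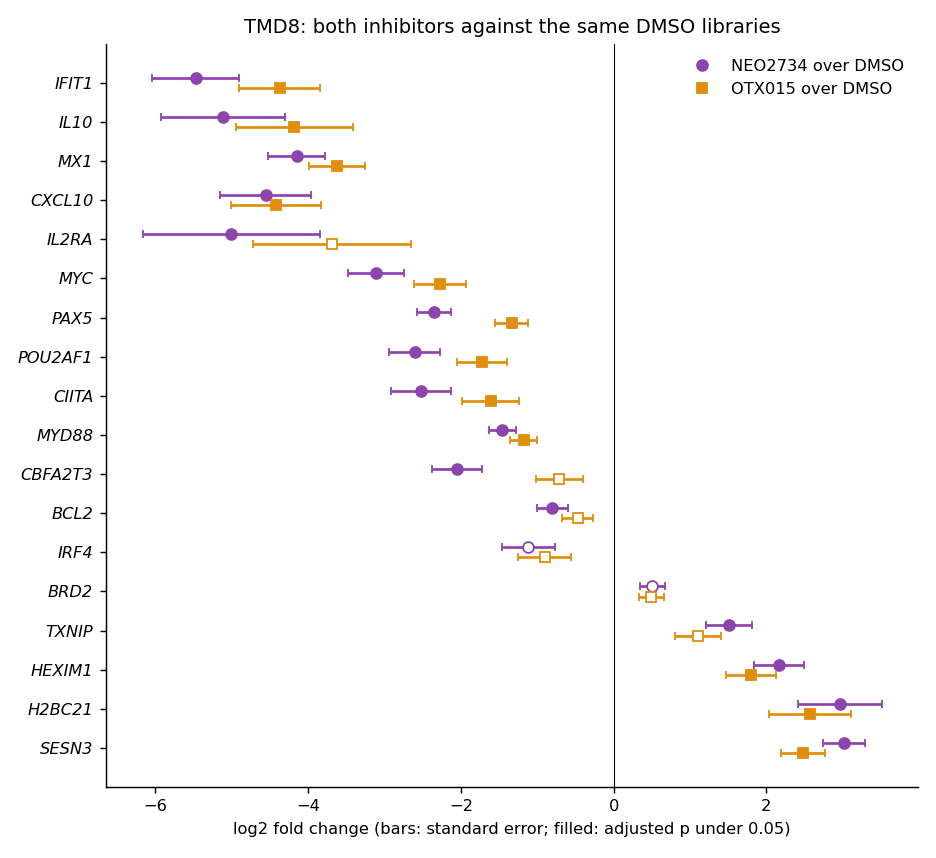
Log2 fold change over DMSO with NEO2734 (circles) and OTX015 (squares) for 18 genes in TMD8, with standard errors. Filled symbols passed at an adjusted p under 0.05. The points of both compounds lie on the same side of 0 for each of the 18 genes, and they share the DMSO libraries.

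OTX015 was measured in 3 TMD8 libraries against the same DMSO libraries, so the values of both compounds are set side by side and are not independent. OTX015 gave 230 calls (1.79%), 58 higher (0.453%) and 172 lower (1.34%), and interferon-stimulated genes fell with it in 34 of 46 cases (median -2.45). PAX5 stood at 302, 210 and 260 CPM with OTX015, above each NEO2734 library (96.7 to 151 CPM) and below each DMSO library. MYC stood at 53.9, 28.7 and 34.2 CPM with OTX015, again above the 3 NEO2734 libraries. CXCL10 stood at 5.70, 5.02 and 6.32 CPM, within the NEO2734 range.

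Between NEO2734 and OTX015 no gene was called by edgeR (0.0%), DESeq2 called 8 and limma-voom 3. In edgeR 252 of 12814 genes had an unadjusted p under 0.05, fewer than that threshold gives when nothing differs. With only the 9 TMD8 libraries in the fit 10 were called, and with only the 6 libraries of the comparison 234. The 6-library fit leaves 2 residual degrees of freedom to estimate the spread, against 18 in the main fit, so its calls are less secure. The groups lay apart for 526 genes (4.1%), against 17.9% between NEO2734 and DMSO. Such a share can arise between groups of 3 libraries without any difference. PAX5 was 2.03-fold lower with NEO2734 than with OTX015 (-1.02, 95% interval -1.47 to -0.57, adjusted p = 1). It passed with DESeq2 (adjusted p = 0.00181), in the 9-library fit (0.0184) and in the 6-library fit (8.05e-06). CBFA2T3 was lower by 1.34 on the log2 scale (95% interval -2.0 to -0.67) and passed in the same 3 fits, and the SUMO ligase gene ZMIZ1 by 1.04 (-1.66 to -0.43), which passed in the 9-library and 6-library fits. For MYC the interval of the difference was -1.57 to -0.11, for IFIT1 -2.23 to 0.03, for CXCL10 -1.51 to 1.24, for HEXIM1 -0.28 to 1.00 and for BRD2 -0.32 to 0.35. Doses are not known, so these differences cannot be told apart from a difference in dose.

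NEO2734 was also measured against DMSO in the 3 other lines. Among those libraries DOHH2 NEO2734 replicate 3 and Toledo DMSO replicate 2 hold genes of another line, and both were kept in the values given here. Of the 751 genes called in TMD8, 114 were called in the same direction in all 3 other lines, 157 in 2, 209 in 1 and 271 in none. Calls in those lines were 436 higher (3.4%) and 515 lower (4.02%) in DOHH2, 320 higher (2.5%) and 328 lower (2.56%) in OCILy10, and 318 higher (2.48%) and 456 lower (3.56%) in Toledo. Across 10312 genes the log2 changes in TMD8 went with those in OCILy10 at r = 0.552, in Toledo at 0.470 and in DOHH2 at 0.440, as a description across genes. HEXIM1 rose in each line (1.93 in DOHH2, 1.65 in OCILy10, 2.53 in Toledo, 2.16 in TMD8), and PAX5 had log2 values of -1.47, -2.06, -0.28 and -2.35 in the same order, not called in Toledo.

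The test of the difference between TMD8 and the mean of the other lines called 33 genes (0.258%), 30 with a lower change in TMD8 (0.234%) and 3 with a higher one (0.0234%). Of the 33, 26 fell in TMD8 and 11 belong to the interferon-stimulated list. That list fell in the other lines too, by less. Of its 46 genes 8 fell in DOHH2, 12 in OCILy10 and 17 in Toledo, and 0 rose in each (medians -0.93, -0.85 and -1.46). Over all genes tested 4.02%, 2.56% and 3.56% fell in these lines. MX1 had a log2 change of -4.15 in TMD8 against -1.54 in DOHH2, -1.80 in OCILy10 and -2.07 in Toledo (difference -2.34 ± 0.39, adjusted p = 0.0102). IFIT3 had -4.88 against -0.44, -0.95 and -2.55 (difference -3.57 ± 0.54, adjusted p = 0.00712), and TRIM21, an antibody receptor inside the cell, -1.34 against -0.26, -0.09 and 0.11 (difference -1.26 ± 0.19, adjusted p = 0.00712). MYC had -3.11 against -1.66, -0.63 and -0.04 (difference -2.33 ± 0.40, adjusted p = 0.0102), and MYD88 -1.46 against -0.57, -0.46 and -0.39 (difference -0.98 ± 0.20, adjusted p = 0.0352). SESN3 had 3.02 against 1.43, 0.70 and 1.67 (difference 1.75 ± 0.30, adjusted p = 0.0108).

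These calls between lines rest on the replicate term and on single libraries. No gene was called without the replicate term or with the shallow TMD8 libraries alone, and 6 were called with a depth term in its place. The replicate numbers of Toledo do not follow depth (6670250 and 1000281 counts with DMSO 1 and 3, 2226071 and 10241477 with NEO2734 1 and 3). A depth term in the other lines in place of their numbers, chosen after seeing the data, gave 16 calls. The count was 15, 11 and 12 without DMSO replicate 1, 2 and 3 and 5, 1 and 10 without NEO2734 replicate 1, 2 and 3, and each of the 6 genes just named lost its call in at least 1 of these fits. OCILy10, the other activated-type line, was also set alone against TMD8, a choice made after seeing the data. MX1 and MYD88 were then not called, while IFIT3, TRIM21, MYC and SESN3 were. The 3 libraries of other lines that hold genes of another line are Toledo DMSO replicate 2, DOHH2 NEO2734 replicate 3 and OCILy10 CB103 replicate 2. Leaving them out raised the count to 59, of which 26 were among the 33 of the main fit. Immediate early genes, with 0 of 29 called in TMD8, had 10 higher and 2 lower in DOHH2, 4 higher in OCILy10 and 2 higher in Toledo. Over all genes tested 3.4%, 2.5% and 2.48% were higher in these lines. No immediate early gene was called in the test of the difference.

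**Figure D5:**
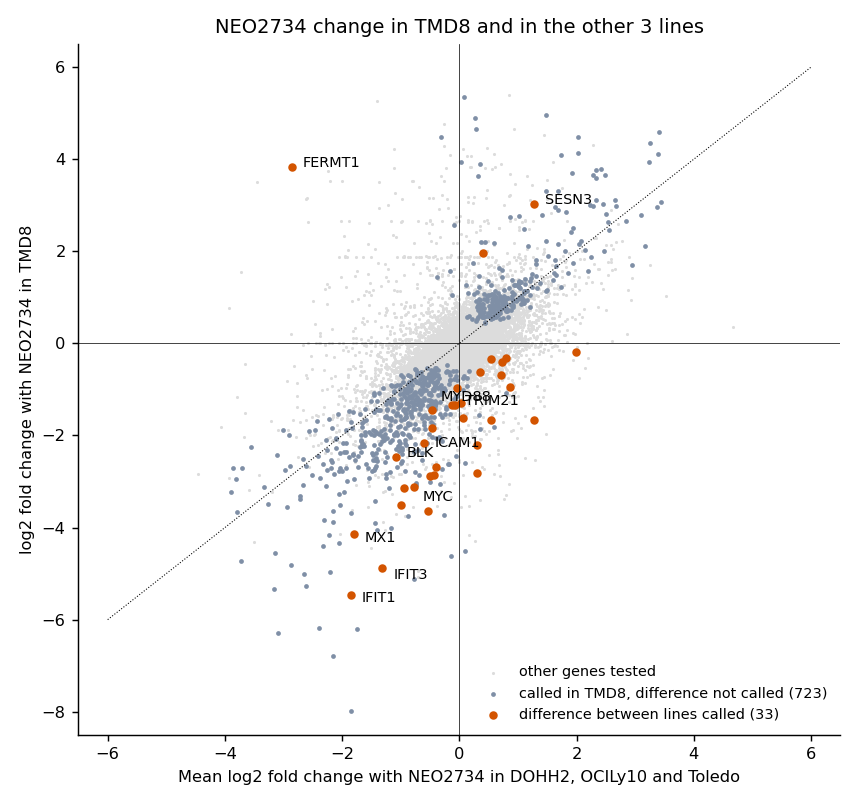
Log2 fold change with NEO2734 in TMD8 (vertical) against its mean over DOHH2, OCILy10 and Toledo (horizontal), for each of the 12814 genes tested. Orange points are the 33 genes whose change differed by the test of the difference, blue-grey points are other genes called in TMD8, and the dotted line marks equal change. Most orange points lie below that line.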

How the data were processed

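RNA-seq of the lymphoma lines was made after 6 h of treatment from Trizol-extracted RNA with a TruSeq RNA kit, per the labels' protocols. The authors deposited raw counts per gene for 39 libraries and 15808 versioned Ensembl IDs, of which 14179 matched a symbol. STAR, edgeR and hg38 are named, per the submitters' processing notes. The sources used here name no counting program, annotation or use of strand. A second deposited table held the same counts in 38 of 39 columns, all 9 TMD8 columns among them.

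Counts were tested with edgeR 4.0.16 (R 4.3.3), by the quasi-likelihood test with TMM scaling and Benjamini-Hochberg adjustment, after edgeR's filter on low counts (12814 genes). The fit held all 39 libraries, a coefficient for each group and the replicate number within each line. The numbers were taken to pair the TMD8 libraries because same-numbered libraries deviated together over 9795 genes (r = 0.416 to 0.941 over the 9 pairs). Differently numbered libraries ran from -0.805 to 0.561, and those among replicates 2 and 3 from 0.292 to 0.561, so these numbers separate replicate 1 from the rest more clearly than 2 from 3. DESeq2 1.42.0, limma-voom (limma 3.58.1), other scalings, filters, terms and library sets were alternatives. On simulated counts for NEO2734 against DMSO (12670 genes), 80% of 4-fold and 22% of 2-fold rises and 66% and 28% of such falls were recovered, with 2 false among 100 calls. The simulated counts were drawn from the fitted model, with pairing by number built in and equal numbers of rises and falls. They therefore do not measure the error rate of the real calls. Exact Poisson intervals and the limit of 3 counts cover counting error only.

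Named genes were the 12 largest rises and 12 largest falls among called genes with a symbol that moved alike in all 3 pairs, did not overlap and reached 5 CPM in a group. To these were added up to 4 members of each of 36 lists by lowest adjusted p, a fixed set of 20 genes, and the 5 lowest p in each direction for the other 2 comparisons. Genes outside this rule were chosen after their values were seen. Members, lists and tests were chosen with earlier results of these data known. Libraries of OCILy10 with CB103 and of other lines with OTX015 entered the fit and are not described. Some genes that the rule names are not reported here.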

Additional observations from a re-analysis of the deposited data

Results flagged for a closer look

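The NEO2734 change differed between TMD8 and the mean of the other 3 lines in 33 genes by the test of the difference itself. Among interferon-related genes the log2 change in TMD8 minus that mean was -1.26 for TRIM21, -3.57 for IFIT3, -1.22 for TRIM25, -2.34 for MX1, -2.52 for IFIH1, -3.62 for IFIT1 and -2.50 for TAP1. It was -2.33 for MYC, -1.57 for ICAM1, -0.98 for MYD88, -2.29 for the adaptor STAP1, -1.39 for BLK and -1.40 for HERC1. It was positive for SESN3 (1.75) and for FERMT1 (6.68), which had 0 counts with DMSO and 5 with NEO2734 in TMD8, so that its fitted value depends on the prior count. Each of these 15 genes lost its call when at least 1 of the 6 TMD8 libraries was left out. With OCILy10 as the only other line, MX1, IFIT1, TAP1, ICAM1, MYD88, STAP1, BLK and FERMT1 were not called, and the rest of these genes were. FERMT1 also lost its call without the 3 libraries that hold genes of another line.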

How the results depend on the processing

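Without the replicate block, NEO2734 against DMSO gave 278 calls, OTX015 against DMSO 50 and the difference between lines 0. A depth term in place of the block gave 6 calls for the difference between lines. With the 9 TMD8 libraries alone the 2 drugs gave 1998 and 857 calls and their difference 10. With the 6 libraries of each comparison, which leave 2 residual degrees of freedom, these were 1326, 384 and 234. With the shallow libraries alone they were 204 and 34, and the difference between lines gave 0. Leaving out 3 libraries that hold genes of another line gave 352 for OTX015 and 59 for the difference between lines. DESeq2 gave 1091 for NEO2734, 384 for OTX015, 8 between the drugs and 70 between lines, and limma-voom 1425, 513, 3 and 62. Without the filter the difference between lines gave 20 calls. Chosen after seeing the data, a depth term in the other lines gave 16 and OCILy10 as the only other line 11. Leaving out 1 library gave 262 to 409 calls for NEO2734, 64 to 121 for OTX015, 0 between the drugs and 1 to 15 between lines. Among genes named in the results, SAT1, IFI44L, ASB2, DNALI1, H2BC21 and H2BC11 also lost their call without the replicate block. So did SOCS3, SERPINI1, MSH4, TUFT1, H2BC4, APEX1, STAP1 and CHST3. The causes were not tested. None of the 89 genes recomputed for NEO2734 against DMSO under each alternative changed sign, and 1 of the 751 called genes did in a fit with a library left out. The medians of cholesterol synthesis (-0.17 to 0.11), ribosomal protein (-0.09 to 0.07) and Notch pathway genes (-0.05 to 0.08) and of all genes tested crossed 0. Libraries of 1265383 to 2175778 counts limit what replicates 2 and 3 show for genes of few counts.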
